A study of Mus musculus with 10 samples.

Results

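A set of 10 genes was examined here as "STAT3 target and acute-phase genes" in RNA from a mouse ovarian tumour line: Pim1, Ccnd1, Bcl3, Cebpb, Cebpd, Myc, Lcn2, Saa3, Lrg1 and Hp. They were picked by gene symbol, and all 10 of 10 were found, 1 row each, among 55385 genes of the count table. The 5 libraries of one group carry the label IL6 shRNA1 and the genotype IL6 knockdown; the 5 of the other group carry a control shRNA matching no mammalian gene, delivered in pLKO.1-puro particles, and the genotype WT (control shRNA). Both groups share the parent line, written APV245 in the sample labels and APC245 in the study design, which derives from a tumour with mutations in Arid1a and Pik3ca, and both are labelled as untreated and as batch 1. The labels describe culture in DMEM, whereas the design text describes tumours grown under the skin from the line. They do not say whether the libraries came from separate animals or cultures, so p-values measure the spread between these libraries. Summed skeletal muscle markers ran from 29.66 to 7473 CPM (counts scaled to a common library size) under the IL6 shRNA1 label. In control they ran from 13.35 to 827.5 CPM. Summed macrophage and monocyte markers ran from 752 to 2900 CPM over all libraries. How much of this spread is technical, and whether the RNA came from culture or tumours, was not tested. The comparison asks how depletion of IL6 bears on the genes that this cytokine is known to drive.

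IL-6 binds its receptor (Il6ra) and the shared signal transducer gp130 (Il6st), which activates JAK kinases and the transcription factor STAT3. STAT3 is known to induce its own inhibitor Socs3, regulators of growth and survival such as Pim1, Ccnd1, Myc and Bcl3, and the C/EBP factors Cebpb and Cebpd. In liver, STAT3 and C/EBP factors together drive secreted acute-phase proteins, of which haptoglobin, serum amyloid A, LRG1 and lipocalin-2 are also made by leukocytes, epithelia and tumour cells, and NF-kB drives several of the same genes.

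Il6 mRNA, the target of the shRNA, was not called lower under the IL6 shRNA1 label, and it was scarce, with 9 to 48 counts per library. Its level was 1.07, 1.83, 2.18, 1.80 and 1.75 CPM in libraries 1 to 5 of that label. In control libraries 1 to 5 it was 1.61, 0.438, 2.06, 1.35 and 0.830 CPM. The groups overlapped, with a log2 ratio (the log2 fold change of IL6 shRNA1 over control) of 0.44 ± 0.36 (SE) at an adjusted p of 0.436. The 95% interval was -0.355 to 1.243, and Il6 of the tumour line was not told apart from that of other cells. The groups are therefore called by their labels, and each direction is that of the label. Totals ran from 17905397 to 22682346 counts per library. On the first principal component of all tested genes, IL6 shRNA1 library 5 and control libraries 2 and 5 lay farthest out, and IL6 shRNA1 library 1 lay on the control side. Ovarian tumour markers were present in all libraries, such as Wt1 (83.0 ± 13.1 against 90.5 ± 22.8 CPM; SD, n = 5 each) and Krt8 (71.0 ± 11.5 against 53.0 ± 24.3 CPM), whereas Pax8 had at most 2 counts. Markers of macrophages, skeletal muscle and skin were counted as well, and they are given below.

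Sequence upstream of the start site is shown for 3 of the genes and for Socs3, the feedback gene of the pathway, because the shared regulators of the group act through such regions. The windows come from RefSeq (GRCm38.p6), begin 250 bases upstream of the RefSeq start, run 5′ to 3′ on the strand of the gene and end before the first base that GENCODE M21 gives as exon, which can lie short of the RefSeq start. The Socs3 window lies inside the gene model of the count table (117966079 to 117970047), between exons of a longer GENCODE transcript. Capitals mark a match to TTCNNNGAA, the palindromic STAT element, or to TTGCNNAA, a C/EBP-type element, searched on both strands.
Pim1 (chr17:29490535-29490752, plus strand), shown as the gene with the largest called rise of the 10: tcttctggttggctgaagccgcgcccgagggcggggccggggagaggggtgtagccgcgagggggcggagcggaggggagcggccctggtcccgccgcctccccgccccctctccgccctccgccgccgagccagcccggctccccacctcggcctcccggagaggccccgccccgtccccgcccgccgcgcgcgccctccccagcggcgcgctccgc
Saa3 (chr7:46715701-46715926, minus strand), shown for its C/EBP-type match: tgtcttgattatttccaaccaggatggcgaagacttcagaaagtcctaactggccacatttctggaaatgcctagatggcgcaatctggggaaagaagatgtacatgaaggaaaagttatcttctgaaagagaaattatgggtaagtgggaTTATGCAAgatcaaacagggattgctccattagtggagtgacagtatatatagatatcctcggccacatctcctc
Lrg1 (chr17:56122002-56122196, minus strand), shown as a secreted member without a match: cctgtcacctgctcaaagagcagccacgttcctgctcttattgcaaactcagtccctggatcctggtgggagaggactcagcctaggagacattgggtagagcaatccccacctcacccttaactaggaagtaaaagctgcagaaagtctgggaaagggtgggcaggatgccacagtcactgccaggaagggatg
Socs3 (chr11:117969452-117969616, minus strand), shown for its STAT-type match: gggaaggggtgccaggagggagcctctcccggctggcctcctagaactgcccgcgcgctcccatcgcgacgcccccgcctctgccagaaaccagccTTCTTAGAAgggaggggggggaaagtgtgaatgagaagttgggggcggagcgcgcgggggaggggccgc
Of the 10 genes, 6 had an entry in this table, with 7 windows of 250 bases (2 for Pim1). TTCNNNGAA was found in 0 of the 7 and in 7.02% of all 32851 windows of that length. TTGCNNAA was found in the windows of Saa3 (TTATGCAA, a match on the opposite strand, 99 to 92 bases upstream of the RefSeq start, which lies beyond the end of the printed stretch) and Lcn2 (TTGCTCAA, 216 to 209 bases upstream of the RefSeq start), and in 9.56% of all windows. The AP-1 element TGANTCA and the NF-kB consensus were found in 0 of the 7, against 6.75% and 3.9% of all windows. A match is only a run of letters, and its absence from so short a window says nothing of the factors themselves.

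Pim1 and Ccnd1, the kinase and the cyclin of the group, were higher in the libraries labelled IL6 shRNA1, by about 1.6-fold and 1.55-fold, and they were the 2 genes of the 10 that passed the test. The 4 transcription regulators Bcl3, Cebpb, Cebpd and Myc had log2 ratios between -0.12 and 0.10. The 4 genes of secreted proteins, Lcn2, Saa3, Lrg1 and Hp, had positive fold changes of up to 1.37 on the log2 scale, and none was called. Summed macrophage and monocyte markers ran from 1685 to 2900 CPM in the libraries labelled IL6 shRNA1 and from 752 to 1780 CPM in control, and their part in these results was not tested. In bulk RNA, fewer cells of a type and less RNA per cell cannot be told apart. In all, 2 of 10 were higher and 0 lower at an adjusted p under 0.05, against 5.62% of the 15064 tested genes that were higher and 6.16% that were lower. All 10 passed the filter on low counts. Groups did not overlap for 1 of the 10, Ccnd1, which was higher, against 4.81% of all tested genes that were higher without overlap and 10.9% in either direction. The median log2 ratio of the 10 was 0.465 with 8 of 10 positive, where all tested genes had a median of -0.01 and 47.9% positive. Neither Pim1 nor Ccnd1 was called without the 3 libraries farthest out, an alternative chosen after seeing the data, which left 0 of the 10 higher. The count was also 0 without IL6 shRNA1 library 5 or control library 2, and 1 without IL6 shRNA1 library 2 or 3 or control library 5. DESeq2 called 3 of them, adding Lrg1.

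**Figure D1:**
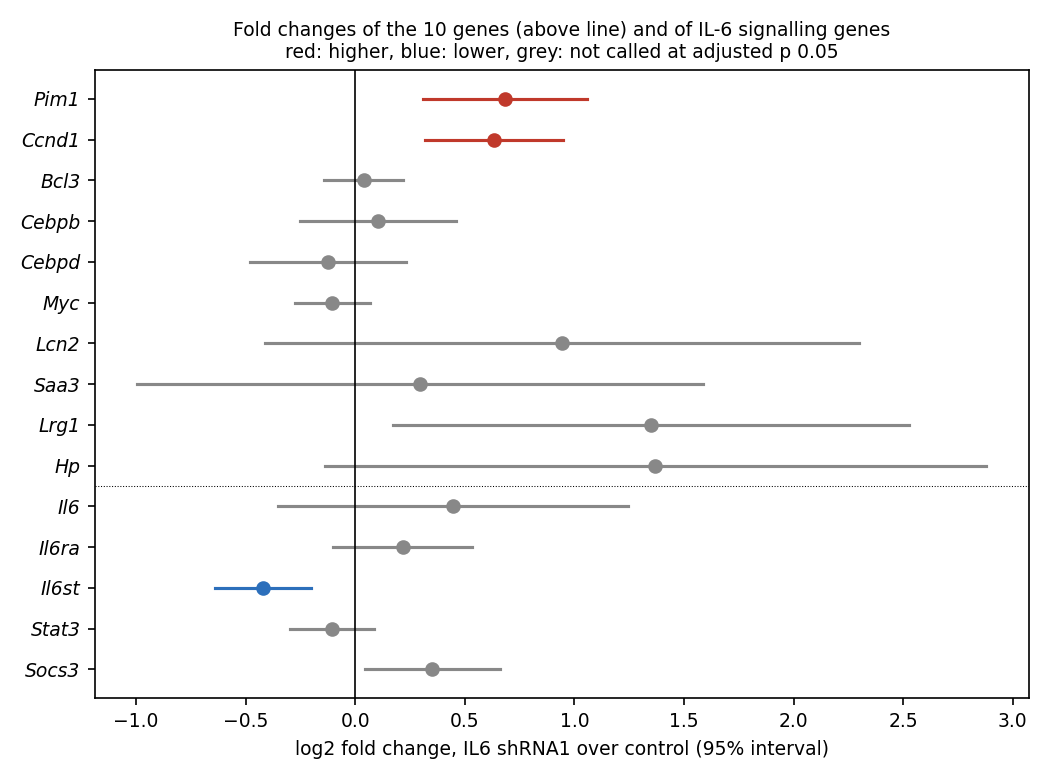
Log2 fold change (x axis) of each of the 10 genes, above the dotted line, and of 5 genes of IL-6 signalling, below it, for IL6 shRNA1 over control with 95% intervals (n = 5 libraries each). Pim1 and Ccnd1 lie to the right of 0 with short intervals, the 4 transcription regulators lie near 0, and the intervals of Lcn2, Saa3, Lrg1 and Hp are the widest of the 10.

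Pim1 encodes a serine/threonine kinase that promotes survival and translation (ENSMUSG00000024014.8, chromosome 17, 29490753 to 29496112, GRCm38). Its level was 37.3, 60.6, 63.3, 41.7 and 51.7 CPM in IL6 shRNA1 libraries 1 to 5. In control libraries 1 to 5 it was 37.5, 24.1, 34.4, 35.3 and 27.2 CPM. Thus 4 of the 5 libraries labelled IL6 shRNA1 lay above every control library, and library 1 lay just below control library 1. The means were 50.9 ± 11.4 and 31.7 ± 5.74 CPM (SD, n = 5 each), and the log2 ratio was 0.68 ± 0.17 (SE), its 95% limits being 0.31 and 1.06 (adjusted p = 0.0286). Two-sided exact permutation of its CPM between the groups gave an unadjusted p of 0.0159. Pim1 was no longer called without IL6 shRNA1 libraries 2, 3 or 5 (adjusted p = 0.0707, 0.0649 and 0.0616) or control libraries 2 or 5 (0.0642 and 0.0729), while its log2 ratio stayed between 0.61 and 0.79 in all 10 omissions of a single library. Without the 3 farthest libraries it was 0.50 ± 0.19 (adjusted p = 0.233).

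Ccnd1 encodes cyclin D1, which activates CDK4 and CDK6 at entry into the cell cycle (ENSMUSG00000070348.5, chromosome 7, 144929931 to 144939925). It was measured at 56.4, 59.6, 65.0, 73.5 and 69.6 CPM in IL6 shRNA1 libraries 1 to 5. The control libraries 1 to 5 held 53.8, 41.5, 47.8, 35.02 and 30.7 CPM. Every library labelled IL6 shRNA1 exceeded every control library, by a narrow margin between IL6 shRNA1 library 1 and control library 1. The means were 64.8 ± 7.02 and 41.8 ± 9.32 CPM (SD, n = 5 each), and the log2 ratio was 0.63 ± 0.14 (SE), its 95% limits being 0.32 and 0.95 (adjusted p = 0.0203). Exact permutation of its CPM gave an unadjusted p of 0.00794, the smallest possible with 5 against 5. Ccnd1 narrowly lost its call without IL6 shRNA1 library 5 (adjusted p = 0.0501) or control library 2 (0.0505), and its log2 ratio was 0.48 ± 0.15 without the 3 farthest libraries (adjusted p = 0.167).

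**Figure D2:**
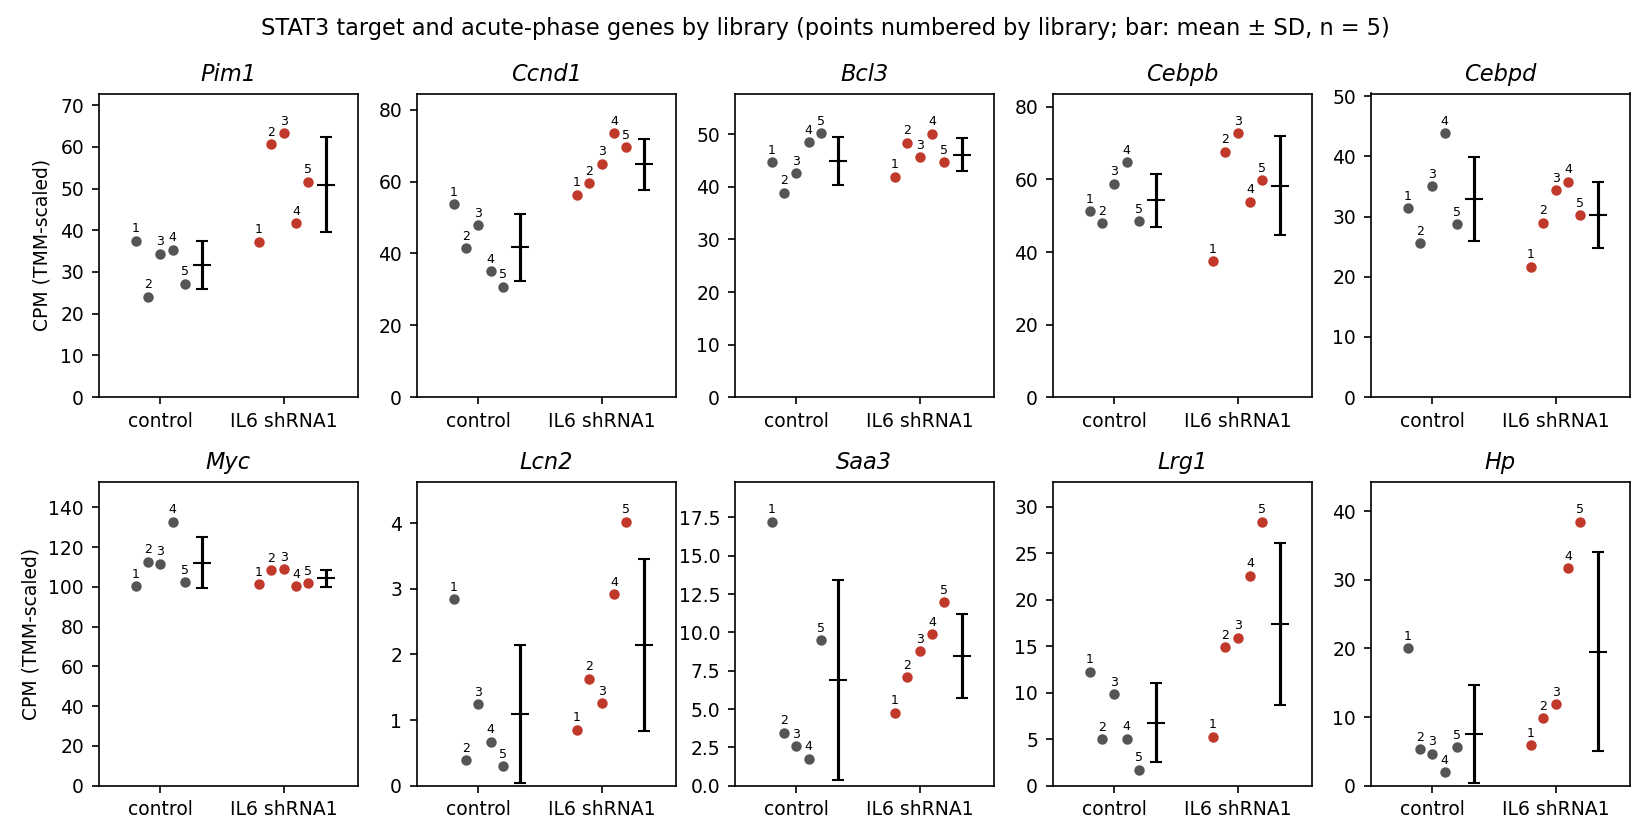
Level of each of the 10 genes in CPM (y axis, from 0) in the 5 control libraries (grey) and the 5 libraries labelled IL6 shRNA1 (red); points carry the library number and the bar shows the mean ± SD. For Ccnd1 the groups do not overlap, and for Lcn2, Saa3, Lrg1 and Hp control library 1 is the highest control and IL6 shRNA1 library 1 the lowest of its label.

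None of the transcription regulators was called. Bcl3, an atypical IkB protein that binds the NF-kB subunits p50 and p52, was at 42.0, 48.4, 45.6, 50.1 and 44.7 CPM in IL6 shRNA1 libraries 1 to 5 and at 44.7, 38.9, 42.6, 48.5 and 50.2 CPM in control libraries 1 to 5. The groups overlapped throughout (log2 ratio 0.04 with SE 0.08, 95% interval -0.14 to 0.22, adjusted p = 0.79). Myc, the growth-promoting transcription factor, was at 101, 109, 109, 101 and 102 CPM in the libraries labelled IL6 shRNA1 and at 101, 113, 112, 133 and 103 CPM in control. All 5 libraries labelled IL6 shRNA1 lay below the control median of 112 CPM, but the lowest control library matched the lowest of them (log2 ratio -0.10 with SE 0.08, 95% interval -0.28 to 0.07, adjusted p = 0.394). These 2 genes had the narrowest intervals of the 10.

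Cebpb and Cebpd encode basic leucine zipper factors that bind the promoters of acute-phase genes. Cebpb was at 37.5, 67.6, 72.8, 53.9 and 59.9 CPM in IL6 shRNA1 libraries 1 to 5 and at 51.3, 48.0, 58.8, 64.9 and 48.6 CPM in control libraries 1 to 5. Library 1 labelled IL6 shRNA1 was the lowest of all 10 libraries and library 3 the highest (log2 ratio 0.10 with SE 0.16, 95% interval -0.25 to 0.46, adjusted p = 0.708). Cebpd was at 21.7, 29.0, 34.3, 35.8 and 30.3 CPM in the libraries labelled IL6 shRNA1 and at 31.4, 25.6, 35.1, 43.9 and 28.8 CPM in control. Here too IL6 shRNA1 library 1 was the lowest, while control library 4 was the highest (log2 ratio -0.12 with SE 0.16, 95% interval -0.48 to 0.23, adjusted p = 0.642).

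Lrg1, Hp, Lcn2 and Saa3 encode the secreted members, and none of them was called in the main edgeR fit of all 10 libraries. Lrg1, leucine-rich alpha-2-glycoprotein 1, a modulator of TGF-beta signalling in vessels, was at 5.29, 14.9, 15.9, 22.6 and 28.4 CPM in IL6 shRNA1 libraries 1 to 5 and at 12.3, 5.02, 9.88, 5.07 and 1.72 CPM in control libraries 1 to 5. Libraries 2 to 5 labelled IL6 shRNA1 exceeded every control, and library 1 lay among the controls. Lrg1 had a log2 ratio of 1.35 ± 0.53 (SE), its 95% limits being 0.17 and 2.53 (adjusted p = 0.118). Exact permutation of its CPM gave an unadjusted p of 0.0397. The same test gave unadjusted p of 0.159 for Hp, 0.1825 for Lcn2 and 0.627 for Saa3. For the transcription regulators it gave 0.198 (Myc) to 0.651 (Bcl3). Lrg1 was called by DESeq2 (adjusted p = 0.0268) and without IL6 shRNA1 library 1 (0.0483, log2 ratio 1.6), and it was not called without any other single library. Its log2 ratio was 1.1 ± 0.54 without IL6 shRNA1 library 5 (adjusted p = 0.23) and 0.69 ± 0.47 without the 3 farthest libraries (0.531).

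Hp encodes haptoglobin, which binds free haemoglobin. It was at 5.88, 9.83, 11.9, 31.7 and 38.5 CPM in IL6 shRNA1 libraries 1 to 5, and at 20.1, 5.31, 4.64, 1.97 and 5.64 CPM in control libraries 1 to 5. IL6 shRNA1 libraries 4 and 5 stood above all others, and control library 1 stood above the other controls and above 3 libraries labelled IL6 shRNA1. The log2 ratio was 1.37 ± 0.68 (SE; 95% interval -0.14 to 2.88, adjusted p = 0.197). It was 2.18 ± 0.61 without control library 1, where it was just called (adjusted p = 0.0499), 0.97 without IL6 shRNA1 library 5 (0.39) and 0.73 without the 3 farthest libraries (0.735).

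Lcn2 encodes lipocalin-2, which binds bacterial iron carriers and is stored in neutrophil granules. It was the least abundant of the 10, with 5 to 76 counts per library. Its level was 0.855, 1.63, 1.26, 2.92 and 4.02 CPM in IL6 shRNA1 libraries 1 to 5 and 2.84, 0.390, 1.25, 0.672 and 0.297 CPM in control libraries 1 to 5. Libraries labelled IL6 shRNA1 all exceeded the control median of 0.672 CPM, yet control library 1 exceeded 3 of them (log2 ratio 0.94 with SE 0.61, 95% interval -0.41 to 2.30, adjusted p = 0.323). Without control library 1 the log2 ratio was 1.70 (adjusted p = 0.071), without IL6 shRNA1 library 5 it was 0.59 (0.583) and without the 3 farthest libraries 0.06 (0.971).

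Saa3 encodes the serum amyloid A that mouse macrophages, fat and epithelia make outside the liver. It was at 4.76, 7.06, 8.79, 9.88 and 11.96 CPM in IL6 shRNA1 libraries 1 to 5 and at 17.2, 3.46, 2.58, 1.76 and 9.49 CPM in control libraries 1 to 5. Control library 1 was the highest of all 10 libraries, and no library labelled IL6 shRNA1 exceeded it. The log2 ratio was 0.30 ± 0.58 (SE; 95% interval -0.99 to 1.59, adjusted p = 0.768), and 1.00 without control library 1 (adjusted p = 0.187). Its paralogues Saa1 and Saa2 had at most 5 and 2 counts per library, and Saa4 had 0. Sharing of reads between these genes was not examined.

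The secreted members differed far more between libraries than the regulators did. The highest library held 19.6 times the lowest for Hp, 16.5 times for Lrg1, 13.6 times for Lcn2 and 9.8 times for Saa3. The same ratio was 2.63 for Pim1, 2.39 for Ccnd1, 2.02 for Cebpd, 1.94 for Cebpb, 1.32 for Myc and 1.29 for Bcl3. Ranked over the 10 libraries, IL6 shRNA1 library 4 was among the 3 highest for 7 of the 10 genes and library 5 for 6, while library 1 was among the 3 highest for 0. Control library 2 was among the 3 lowest for 9 of the 10 genes and control library 5 for 6.

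**Figure D3:**
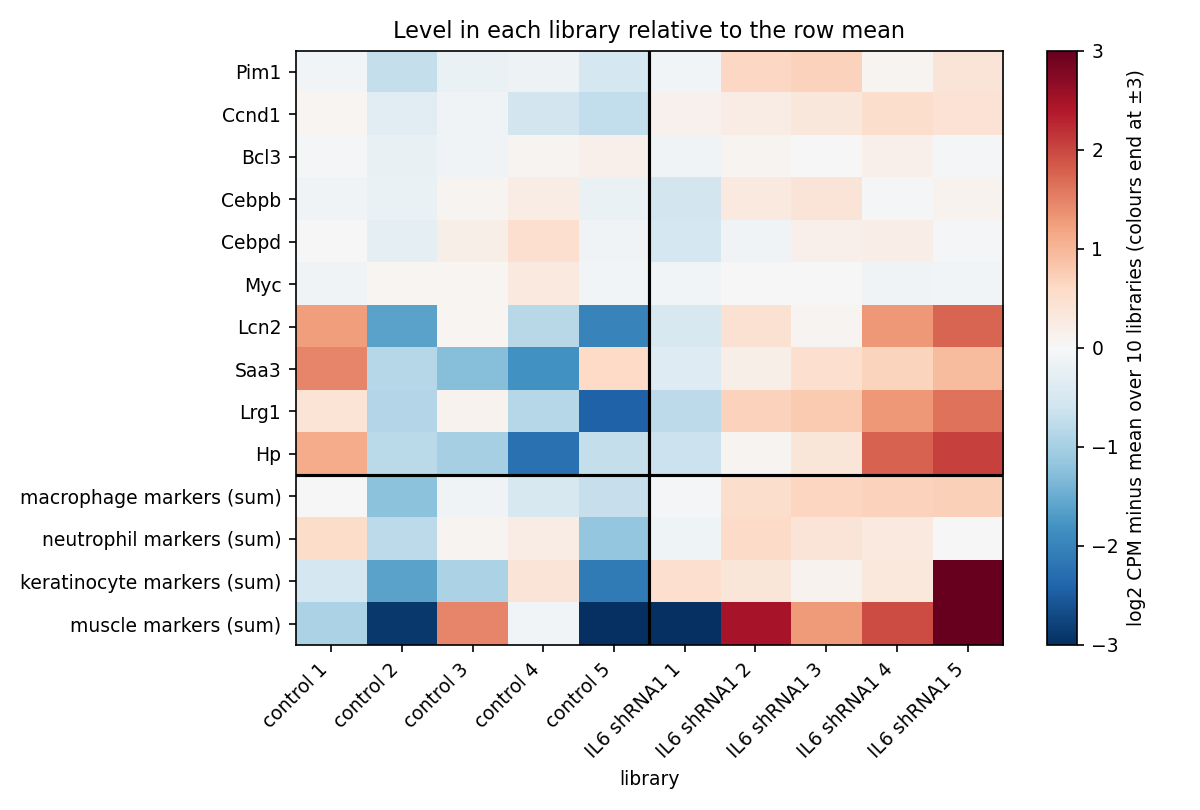
Log2 CPM of each of the 10 genes (rows above the line) and of the summed markers of 4 other cell types (rows below it), minus the row mean over the 10 libraries (columns; control left of the line, IL6 shRNA1 right); red is above and blue below the row mean, with colours ending at ±3. Control library 1 is red for Lcn2, Saa3 and Hp, control library 2 is blue for most rows, and IL6 shRNA1 library 5 is red for the 4 secreted genes and darkest for the summed skin and muscle markers.

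Per length of gene model, in the deposited FPKM values, Myc and Cebpb were the most abundant of the 10 and Lcn2 the least. In the control libraries the FPKM levels were 41.2 ± 5.63 for Myc, 36.2 ± 6.36 for Cebpb and 18.1 ± 1.88 for Bcl3 (SD, n = 5). Pim1 (9.48 ± 2.18), Ccnd1 (8.92 ± 2.38) and Cebpd (8.83 ± 2.18) formed the next step. Myc and Cebpb lay within 1 SD of each other, as did Pim1, Ccnd1 and Cebpd, while Bcl3 stood apart from both sets. Below them came Lrg1 (4.94 ± 3.24), Hp (4.74 ± 4.68), Saa3 (2.65 ± 2.58) and Lcn2 (0.427 ± 0.421), whose values spread widely and overlapped. In the libraries labelled IL6 shRNA1 the order by FPKM ran Cebpb (39.0 ± 9.89), Myc (38.4 ± 2.52), Bcl3 (18.7 ± 2.01), Pim1 (15.2 ± 3.63), Ccnd1 (13.8 ± 1.85), Lrg1 (12.5 ± 6.16), Hp (12.2 ± 9.03), Cebpd (8.12 ± 1.74), Saa3 (3.27 ± 1.06) and Lcn2 (0.816 ± 0.492). In that order the SDs of neighbours overlapped from Cebpb to Myc and from Bcl3 down to Cebpd, but not between Myc and Bcl3, Cebpd and Saa3, or Saa3 and Lcn2.

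Shares within the gene families were computed from FPKM after the calls had been seen, and they restate those calls beside the paralogues. They are given as a description, and the exact permutation tests run on them add no independent support and are left out. Pim1 made up 55.9, 57.4, 55.7, 49.5 and 56.4% of the FPKM of Pim1, Pim2 and Pim3 in IL6 shRNA1 libraries 1 to 5, against 48.9, 43.5, 46.5, 43.4 and 49.1% in control libraries 1 to 5. The means were 55.0 ± 3.15% and 46.3 ± 2.77% (SD, n = 5 each), and the groups did not overlap. Ccnd1 made up 21.4, 24.7, 25.1, 29.3 and 27.6% of the 3 D-type cyclins, against 21.6, 14.7, 19.4, 15.7 and 12% in control, with IL6 shRNA1 library 1 just under control library 1. Ccnd2, the main D-type cyclin here by FPKM, was at 297 ± 38.1 against 341 ± 56.2 CPM (adjusted p = 0.288), and Ccnd3 at 73.7 ± 16.6 against 73.2 ± 10.7 CPM (adjusted p = 0.975). Pim2 (4.69 against 4.67 CPM) and Pim3 (25.8 against 22.5 CPM) were not called either (adjusted p = 0.994 and 0.418).

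**Figure D4:**
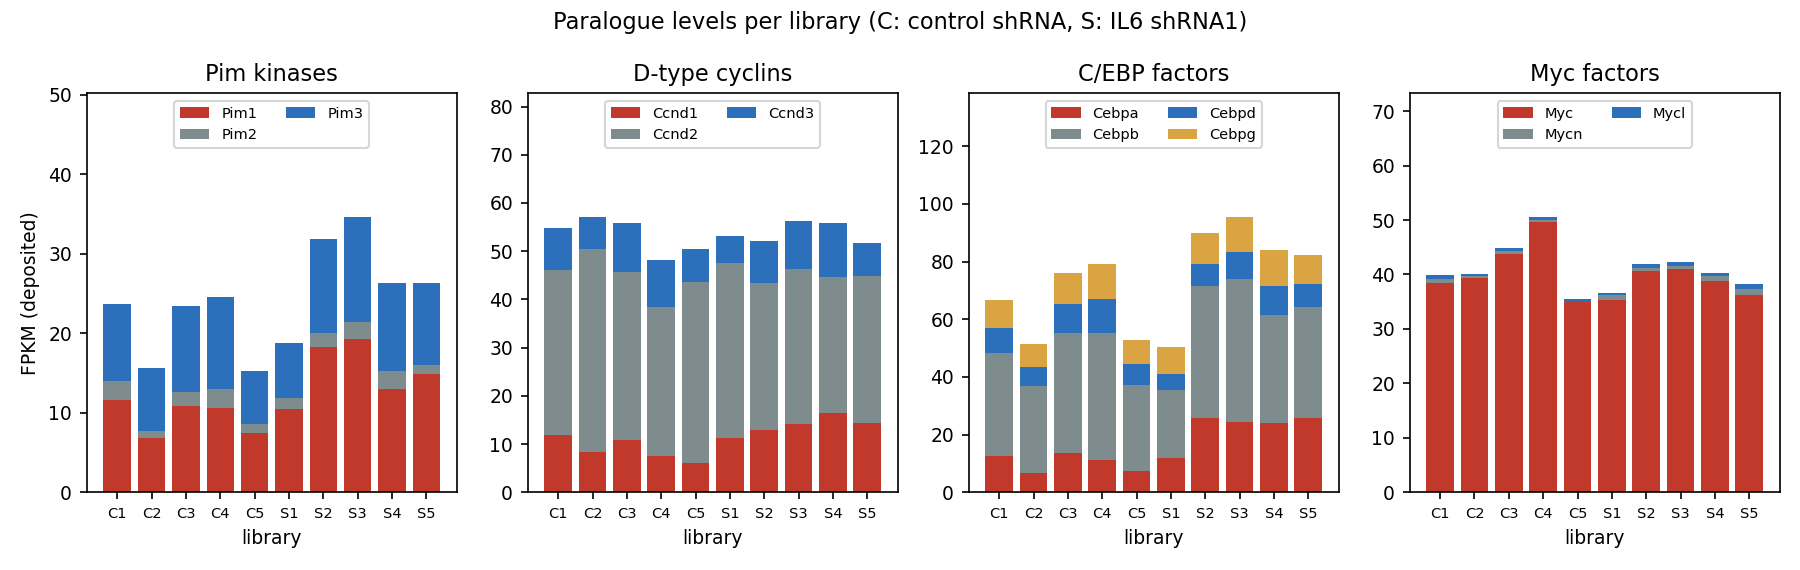
Deposited FPKM of the paralogues of 4 families stacked per library (x axis: C1 to C5 control, S1 to S5 IL6 shRNA1; y axis: FPKM from 0). Pim1 and Cebpa make up a larger part of their columns in S1 to S5 than in C1 to C5, Ccnd2 is the largest part of the D-type cyclins, and Mycn and Mycl are thin slices beside Myc.

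Cebpa, which encodes the C/EBP factor of myeloid, fat and liver cells, was higher where Cebpb and Cebpd were not called. It was at 33.1, 66.8, 63.01, 60.02 and 70.02 CPM in IL6 shRNA1 libraries 1 to 5 and at 32.2, 18.6, 34.1, 29.5 and 21.2 CPM in control libraries 1 to 5. IL6 shRNA1 library 1 again lay at the level of the controls (2.16-fold by group means, 95% limits of the log2 ratio 0.61 and 1.61, adjusted p = 0.0143). Cebpa made up 32.0 ± 2.81% of the FPKM of Cebpa, Cebpb and Cebpd in the libraries labelled IL6 shRNA1 and 18.5 ± 3.0% in control (SD, n = 5 each), again a description of values already seen. Without the 3 farthest libraries the log2 ratio of Cebpa was 0.80 (adjusted p = 0.125). The remaining tested C/EBP genes were not called, Cebpg at 61.0 against 54.8 CPM (adjusted p = 0.345) and Cebpz at 46.0 in both groups (0.986), and Cebpe had at most 10 counts. Mycn (2.58 against 1.595 CPM) and Mycl (2.65 against 2.14 CPM) were scarce beside Myc and were not called (adjusted p = 0.205 and 0.49). Among the IkB relatives of Bcl3, Nfkbiz (28.9 against 20.7 CPM, adjusted p = 0.068), Nfkbie (21.8 against 14.9, 0.129), Nfkbid (4.12 against 2.94, 0.263), Nfkbib (20.3 against 18.6, 0.59) and Nfkbia (49.4 against 47.3, 0.758) were not called. The tested genes of these families number 21 and include Pim1, Ccnd1, Bcl3, Cebpb, Cebpd, Myc and Saa3, already counted among the 10 genes. Outside the 10 genes only Cebpa was called. Of the 21, 3 were higher (Cebpa, beside Pim1 and Ccnd1 counted above) and 0 lower, against 5.62% and 6.16% of all tested genes, with a median log2 ratio of 0.15. That count was 5 without IL6 shRNA1 library 1, 1 without IL6 shRNA1 library 5 or control library 2, and 0 without the 3 farthest libraries.

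Upstream of the group, the signal transducer gene Il6st was lower in the libraries labelled IL6 shRNA1, at 312, 254, 249, 257 and 326 CPM in libraries 1 to 5 against 352, 393, 326, 375 and 425 CPM in control. The groups did not overlap, with 326.2 CPM in IL6 shRNA1 library 5 just under 326.3 CPM in control library 3 (log2 ratio -0.42 with SE 0.10, adjusted p = 0.0238). Il6st was not called without IL6 shRNA1 libraries 2, 3 or 4 (adjusted p = 0.0731, 0.0639 and 0.0629), control libraries 2 or 5 (0.0674 and 0.0714) or the 3 farthest libraries (0.102). Stat3 itself was at 312 ± 36.1 against 336 ± 23.2 CPM (adjusted p = 0.431) and Il6ra at 25.7 ± 5.11 against 22.1 ± 3.06 CPM (adjusted p = 0.335). Socs3, the feedback inhibitor, was at 57.6, 91.9, 83.7, 76.2 and 88.4 CPM in the libraries labelled IL6 shRNA1 and at 67.4, 50.7, 65.5, 74.9 and 53.5 CPM in control (log2 ratio 0.35 with SE 0.14, adjusted p = 0.12). Libraries 2 to 5 labelled IL6 shRNA1 exceeded every control, library 1 did not, and without library 1 Socs3 was called (log2 ratio 0.46, adjusted p = 0.0259). That was the 1 call of Socs3 in 22 alternative settings. Across them its log2 ratio went down to 0.16 and its adjusted p up to 0.655.

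Other STAT3 response genes were called in both directions. All 35 on the list could be tested. Of these, 4 passed as higher and 3 as lower, 23 had positive log2 ratios, and the median was 0.18. Over all tested genes 5.62% were higher, 6.16% lower and 11.8% either, 47.9% were positive and the median was -0.01. Bcl2, the survival gene, was higher at 12.2 ± 1.54 against 6.19 ± 1.13 CPM (SD, n = 5 each; log2 ratio 0.97 with SE 0.15, adjusted p = 0.00402). Prkcd, protein kinase C delta, which can phosphorylate STAT3, was higher at 109 ± 8.93 against 73.3 ± 13.9 CPM (adjusted p = 0.0168), as were the AP-1 subunit genes Fos (39.1 ± 9.57 against 22.8 ± 5.19 CPM, adjusted p = 0.0252) and Junb (216 ± 29.1 against 157 ± 30.2 CPM, adjusted p = 0.0465). Lower were Twist1, a mesenchymal transcription factor (26.7 ± 2.66 against 57.3 ± 11.98 CPM, adjusted p = 0.00154), Tnfrsf1a, the receptor for TNF (204 ± 14.3 against 249 ± 16.1 CPM, adjusted p = 0.0251), and Il6st. The abundant members Il4ra (674 ± 231 against 573 ± 195 CPM, adjusted p = 0.621), Fosl2 (371 ± 81.0 against 444 ± 72.6 CPM, 0.277) and Mmp9 (245 ± 142 against 446 ± 91.2 CPM, 0.166) were not called. Bcl2 and Twist1 kept their calls in all 22 alternatives, and Prkcd in every omission of a single library. Junb lost its call in 15 of the 22, among them the omission of each library but IL6 shRNA1 library 1 and control library 4 (adjusted p = 0.0648 to 0.107). Fos lost its call without IL6 shRNA1 library 2 or 5 (adjusted p = 0.0571 and 0.0608) or control library 2 or 5 (0.0642 and 0.0652). Tnfrsf1a lost its call without IL6 shRNA1 library 2, 3 or 4 (0.0669, 0.0577 and 0.0559) or control library 2 or 5 (0.0656 and 0.0676). Single libraries moved the number of called genes in this list, from 7 to 11 without IL6 shRNA1 library 1 and to 3 or 4 without IL6 shRNA1 libraries 2 (3) or 3 (4) or control libraries 2 or 5 (3 each), and it was 2 without the 3 farthest libraries.

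Other acute-phase genes fell into 17 that could be tested and 19 of 36 in the table that were too low, and Saa4, Fga, Fgb, Apcs, Ahsg and Ttr had 0 counts in all 10 libraries. Hepatocyte markers, among them Alb and Apoa1, summed to at most 0.195 CPM in any library. Among the 17 tested, Cd14 and Trf passed as higher (2) and Ptx3 as lower (1), 13 had positive log2 ratios, and the median was 0.57, beside 5.62% higher, 6.16% lower and 47.9% positive over all tested genes with a median of -0.01. Cd14, the lipopolysaccharide co-receptor of monocytes, was higher at 22.3 ± 4.85 against 9.95 ± 4.52 CPM (SD, n = 5 each; log2 ratio 1.16 with SE 0.30, adjusted p = 0.0347), and Trf, which encodes the iron carrier transferrin and falls in the acute phase, at 114 ± 4.35 against 78.8 ± 9.64 CPM (adjusted p = 0.00455). Ptx3, the long pentraxin of stromal and myeloid cells, was lower at 30.6 ± 3.85 against 60.3 ± 22.2 CPM (log2 ratio -0.98 with SE 0.23, adjusted p = 0.0232). Among the most abundant were Mt1, a metallothionein gene (354 ± 51.5 against 457 ± 79.2 CPM, adjusted p = 0.0976), and complement C3 (142 ± 53.9 against 91.1 ± 45.6 CPM, 0.264). Trf kept its call in all 22 alternatives. Cd14 lost its call without any one of IL6 shRNA1 libraries 2 to 5 or control libraries 1, 2 and 5 (adjusted p = 0.0536 to 0.0766), and Ptx3 without IL6 shRNA1 library 2 or 3 or control library 2 (0.0613, 0.06 and 0.0581). The 3 calls of this list became 5 without control library 1 and 1 without IL6 shRNA1 library 2 or 3, control library 2 or the 3 farthest libraries.

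Macrophage and monocyte markers were higher under the IL6 shRNA1 label, the direction of Pim1, Ccnd1 and Cebpa. All 12 such markers were tested, 7 passed as higher and 0 as lower, and 12 had positive log2 ratios with a median of 1.12, beside 5.62% higher and 47.9% positive over all tested genes. C1qb, a complement subunit of macrophages (408 ± 101 against 174 ± 70.3 CPM; SD, n = 5 each), Csf1r, the receptor of macrophage growth factor (276 ± 46.2 against 152 ± 44.5 CPM), and Lyz2, lysozyme (671 ± 101 against 409 ± 99.7 CPM), had the smallest p of those called (adjusted p = 0.0281, 0.0247 and 0.0274). All 3 lost their calls without any one of IL6 shRNA1 libraries 2 to 5 or without control library 5, C1qb and Lyz2 also without control library 4 (adjusted p = 0.0507 to 0.0722), and all 3 without the 3 farthest libraries (0.0956 to 0.146). The summed level of the 12 was 1685, 2549, 2763, 2844 and 2900 CPM in IL6 shRNA1 libraries 1 to 5 and 1780, 752, 1641, 1262 and 1097 CPM in control libraries 1 to 5. IL6 shRNA1 library 1 and control library 1 stood side by side on this sum, at 1685 and 1780 CPM. The part of these markers in the levels of Pim1, Ccnd1 and Cebpa was not tested.

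No neutrophil, lymphocyte or endothelial marker was called. Over all tested genes 5.62% were higher, 6.16% lower and 47.9% positive, and 0 calls is close to that share in lists this short. Of 12 neutrophil markers 5 were tested and 0 were called, and S100a8 (6.49 ± 1.99 against 5.68 ± 2.60 CPM; SD, n = 5 each; adjusted p = 0.744) and Csf3r (30.5 ± 5.55 against 22.66 ± 11.4 CPM, 0.418) were among them. Their sum ran from 41.0 to 66.6 CPM in the libraries labelled IL6 shRNA1 and from 20.2 to 65.8 CPM in control. The granule and lineage genes Ly6g, Elane, Mmp8 and Camp had at most 1, 2, 8 and 9 counts per library, and Ngp had 0 in every control library. Retnlg, too low to be tested with at most 46 counts, had a higher mean under the IL6 shRNA1 label (1.31 against 0.301 CPM). Mpo, which was tested, had a lower one (0.623 against 0.900 CPM, adjusted p = 0.431). Lymphocyte markers, 0 of 7 tested being called and 7 positive, summed to 21.7 to 47.9 CPM and 9.84 to 30.1 CPM, and endothelial markers, 0 of 6 called and 6 positive, to 176 to 333 CPM and 142 to 186 CPM.

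Skin and muscle markers were higher on average under the IL6 shRNA1 label and differed widely between libraries, and their part in the values of the 10 genes was not tested. Keratinocyte markers, 0 of 3 tested being called and 3 positive (median log2 ratio 3.95), summed to 917 CPM in IL6 shRNA1 library 5 and to 85.2 to 112 CPM in libraries 1 to 4 of that label, against 17.97 to 102 CPM in control. Skeletal muscle markers, 0 of 4 called and 4 positive (median log2 ratio 3.17), summed to 29.7, 1681, 734, 1165 and 7473 CPM in IL6 shRNA1 libraries 1 to 5 and to 156, 40.5, 828, 284 and 13.4 CPM in control libraries 1 to 5. IL6 shRNA1 libraries 2, 4 and 5 exceeded every control library. IL6 shRNA1 library 5 was also the highest library for Lcn2, Lrg1 and Hp, and the values of these genes without it are given above. Fibroblast and pericyte markers summed to 34560 to 66290 CPM and 33430 to 72650 CPM, with Dcn lower (511 ± 94.3 against 783 ± 111 CPM, adjusted p = 0.0166) as the 1 called of 8. Of the fat cell markers 1 of 5 was tested, Pparg, which was lower (3.50 ± 0.31 against 7.43 ± 2.30 CPM, adjusted p = 0.00834), while the 4 too low to be tested had higher means under the IL6 shRNA1 label: Adipoq (1.23 against 0.335 CPM), Plin1 (1.17 against 0.454 CPM), Cidec (0.953 against 0.178 CPM) and Lep (0.153 against 0.0716 CPM). Of 8 ovarian tumour epithelium markers 7 were tested and 0 called. The calls in these short lists stand beside 5.62% higher, 6.16% lower and 47.9% positive over all tested genes.

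**Figure D5:**
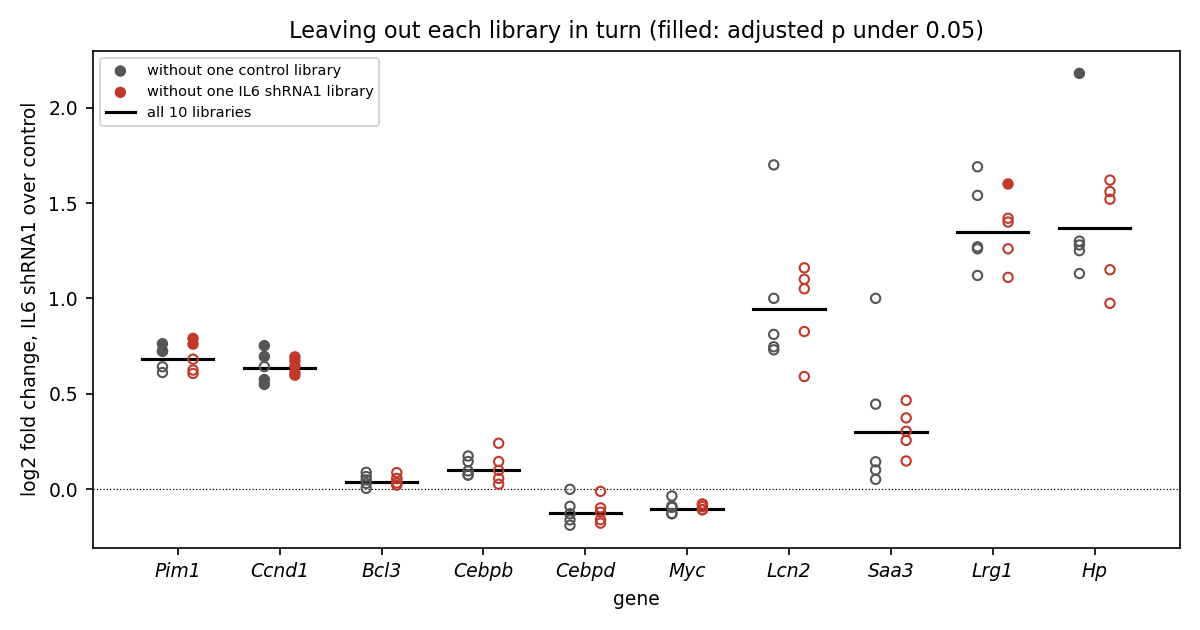
Log2 fold change of each of the 10 genes (y axis) with all 10 libraries (black line) and with each library left out in turn (grey: a control library, red: a library labelled IL6 shRNA1); filled points have an adjusted p under 0.05. Points for Pim1 and Ccnd1 stay close to their lines between 0.549 and 0.79, those for the transcription regulators stay near 0, and those for Lcn2, Saa3 and Hp move most when control library 1 is left out.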

How the data were processed

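RNA sequencing libraries from 10 samples, 5 labelled IL6 shRNA1 and 5 control shRNA, were analysed. Per the submitters' processing notes, the tools were STAR 2.7.0f, featureCounts, Subread 1.6.4, Trim Galore 0.6.6, FastQC 0.11.9, R 4.0.4 and SAMtools 1.11, and the builds mm10 and GRCm38. Whether counting used strand is not given in the sources used here. Raw values came from a deposited count table, which holds the authors' raw counts per gene, and the deposited FPKM table holds the authors' FPKM of the same genes.

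Counts were fitted in R 4.3.3 with edgeR 4.0.16: filterByExpr by group (minimum count 10), TMM factors, glmQLFit with robust=TRUE and glmQLFTest, Benjamini-Hochberg adjustment over all 15064 genes tested, threshold 0.05. Intervals of 95% come from the quasi-likelihood F statistic. CPM uses the TMM factors; FPKM was used to compare genes. Single values were compared by exact two-sided permutation over 252 regroupings (smallest p 0.0079). The procedure was tested on simulated counts drawn independently for each library, which do not hold the differences in marker levels seen between these libraries. Alternatives used DESeq2 1.42.0, limma 3.58.1 (voom, and log2(FPKM + 1) or log2(FPKM + 0.1)), other scaling and filters, a replicate block, a threshold of 0.01 and the omission of each library; the omission of the 3 farthest libraries was added later. Plots used matplotlib 3.10.9.

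The members and gene lists were chosen with earlier results of these data known. Named were all 10 members, Il6, Il6ra, Il6st, Stat3, Socs3, their paralogues, up to 6 called genes and the 4 most abundant of each pathway list, and from marker lists up to 3 called genes, the 2 most abundant and those at 0; any further gene named was picked with its values in view. An acute-phase gene the rule takes is not reported here, and some abundant markers it takes are given only within sums.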

Additional observations from a re-analysis of the deposited data

Results flagged for a closer look

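In control library 1, Hp stood at 20.1 CPM while the next control library had 5.64 CPM, a gap large for the range of its group. IL6 shRNA1 library 1 had a summed level of macrophage and monocyte markers of 1685 CPM, below the 2549 to 2900 CPM of the other libraries of its label. In IL6 shRNA1 library 5 the summed keratinocyte markers reached 917 CPM and the summed skeletal muscle markers 7473 CPM, where the next highest libraries of that label had 112 and 1681 CPM. These 4 single-library values came from 38 groups of 5 examined (15 genes and 4 marker sums), and chance flags about 1 in 20 groups.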

How the results depend on the processing

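With all 10 libraries 2 of the 10 genes were called higher. The number was 1 with no filter on low counts (Ccnd1), 1 on log2(FPKM + 1) and 1 on log2(FPKM + 0.1), 0 at an adjusted p under 0.01, 0 with the title numbers as a replicate block and 0 without the 3 farthest libraries, and 0 to 3 when single libraries were left out; 0 were called lower throughout. The other STAT3 response genes called went from 7 to 3 with the replicate block, 2 at 0.01 and 2 without the 3 farthest libraries (3 to 11 leaving out single libraries). Acute-phase calls went from 3 to 1 with no filter, 1 at 0.01 and 1 without the 3 farthest libraries (1 to 5). Paralogue calls, Pim1 and Ccnd1 among them, went from 3 to 0 with the block, 0 at 0.01 and 0 without the 3 farthest libraries (1 to 5). Over all tested genes the 1775 calls became 3027 with DESeq2, 755 with the block, 381 at 0.01 and 212 without the 3 farthest libraries, 203 of them among the 1775, and 864 to 2774 leaving out single libraries (2774 without IL6 shRNA1 library 1, and 864 to 1154 without any one of IL6 shRNA1 libraries 2 to 5 or control libraries 2 and 5). The cause was not tested; the smaller sets also have fewer samples. Cebpb turned to -0.01 without the 3 farthest libraries, the 1 reversal among the 10 genes. Same-numbered libraries correlated at -0.282 to 0.269, which neither shows nor excludes that the numbers pair them. Under the replicate block the adjusted p was 0.102 for Pim1 and 0.0725 for Ccnd1. Of the 10 genes, depth limits Lcn2 most, at 5 to 76 counts per library.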
